A study of Homo sapiens with 4 samples.

Results

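The 64 replication-dependent histone genes described here are the protein-coding genes of the GENCODE annotation that lie between 26 and 28 Mb of chromosome 6 or within the megabase that ends at 150 Mb of chromosome 1 (hg38) and whose symbols start with H1-, H2AC, H2BC, H3C or H4C. They are 64 of 19970 protein-coding genes on chromosomes 1 to 22 and X, and comprise 6 H1, 15 H2A, 16 H2B, 13 H3 and 14 H4 genes. They fall into 4 clusters, 1 of 11 genes on chromosome 1 and 3 on chromosome 6, which hold the 32 genes from H1-1 to H4C8, the 5 from H2BC11 to H2AC12 and the 16 from H2BC13 to H2BC17.

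Acetylation of histone H3 at lysine 27 (H3K27ac), a mark of active promoters and enhancers, was profiled by ChIP-seq in MDA-MB-231 and Hs578T, both established triple-negative breast cancer cell lines. Each line gave 2 peak lists. All 4 cultures were starved for 8 h, given 10 ng/ml of TWEAK, a cytokine that signals through the receptor Fn14, for 48 h, and then left without it for 72 h. The washout time is that of the series' design text, and the study also describes a longer wash-off, so the time is not certain. No untreated list was analysed here, so nothing below measures a response to TWEAK, and the replicate labels do not say whether the 2 cultures of a line were separate. The lists hold called peaks and no read counts, so the sequencing depth is unknown.

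The first MDA-MB-231 list stood apart from the rest. It held 209 peaks on chromosomes 1 to 22 and X, against 43353, 46330 and 44920 in the second MDA-MB-231 list and the first and second Hs578T lists, which are called the large lists and given in this order throughout. Among the large lists, the shared fraction of covered bases was 0.770 between MDA-MB-231 replicate 2 and Hs578T replicate 1, 0.759 between MDA-MB-231 replicate 2 and Hs578T replicate 2 and 0.780, slightly higher, between the Hs578T lists. In each large list the mesenchymal genes VIM, CD44 and AXL all had a promoter peak and the luminal genes ESR1, GATA3, FOXA1 and ESRP1 had none, and the small list marked none of these 7 genes. A missing peak in that list therefore carries little information, and with 2 lists per line no exact test between lines could reach the usual threshold, so no test is given.

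Replication-dependent histone genes supply the core histones H2A, H2B, H3 and H4 and the linker histone H1 that package newly copied DNA, and their transcription is coupled to S phase. Their transcripts lack introns and end in a conserved stem-loop in place of a poly(A) tail, and this stem-loop is bound by SLBP. The genes sit in clusters, and many H2A and H2B genes lie head to head and share the sequence between their start sites.

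The gene models had these features throughout. All 64 genes had a single exon, as did 5.57% of all protein-coding genes, and their median transcript length was 487 bases against 2888.5 for all genes. A match to the histone stem-loop consensus lay within 100 bases after the stop codon of 64 of 64 genes and of 72 of 19856 protein-coding genes with an annotated stop codon (0.363%). It began 22 to 67 bases after the stop codon, with a median of 35. Of the 72, 8 were not among the 64 genes, and all of them were histone genes elsewhere in the genome. The stem-loop took 10 forms, of which the 4 most frequent are shown here from 1 gene each because they divide the H4 genes from the other families, with the stem-loop in capitals and 5 bases on either side.
H1-2 (chr6:26055744-26055759, minus strand): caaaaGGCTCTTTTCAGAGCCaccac
H4C1 (chr6:26022030-26022045, plus strand): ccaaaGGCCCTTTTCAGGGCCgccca
H1-1 (chr6:26017037-26017052, minus strand): ccaacGGCTCTTTTAAGAGCCaccta
H4C14 (chr1:149833032-149833047, plus strand): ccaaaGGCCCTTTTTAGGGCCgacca
The form of H1-2 was found in 36 genes, 26 of which carried H3K27ac at the promoter in every large list. The form of H4C1 was found in 9 genes, all H4 and 5 of them marked. The form of H1-1 was also found in 9 genes, 5 of them marked. The form of H4C14 was found in 4 genes, all H4 and 3 of them marked. Each of these 4 forms was thus found in both marked and unmarked genes.

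The sequence between the start sites of head-to-head H2A and H2B genes is shown for 5 of 10 such pairs because they span strong, weaker and absent H3K27ac. The plus strand of hg38 is printed, so the first gene of each pair reads leftwards, and capitals mark 3 motifs on either strand, the TATA box motif (TATAAA), the box bound by NF-Y (CCAAT) and the octamer of POU2F1 (ATTTGCAT).
H2BC21 and H2AC20 (chr1:149886683-149886917): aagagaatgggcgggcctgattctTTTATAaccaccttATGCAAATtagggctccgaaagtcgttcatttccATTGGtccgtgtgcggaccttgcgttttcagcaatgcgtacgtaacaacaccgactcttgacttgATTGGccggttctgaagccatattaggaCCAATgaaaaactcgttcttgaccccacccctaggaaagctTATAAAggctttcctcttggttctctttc
H2BC12 and H2AC12 (chr6:27146856-27147105): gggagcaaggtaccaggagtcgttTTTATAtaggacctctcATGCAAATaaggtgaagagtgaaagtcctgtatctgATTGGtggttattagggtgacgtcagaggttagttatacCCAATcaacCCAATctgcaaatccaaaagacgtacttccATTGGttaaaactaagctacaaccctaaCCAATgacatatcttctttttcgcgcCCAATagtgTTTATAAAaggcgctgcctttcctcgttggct
H2BC13 and H2AC13 (chr6:27807930-27808172): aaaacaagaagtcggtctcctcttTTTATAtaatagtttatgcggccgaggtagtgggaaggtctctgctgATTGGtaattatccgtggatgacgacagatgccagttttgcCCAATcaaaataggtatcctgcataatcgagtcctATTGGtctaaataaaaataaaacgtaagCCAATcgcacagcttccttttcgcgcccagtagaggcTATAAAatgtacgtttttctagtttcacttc
H2AC7 and H2BC7 (chr6:26199294-26199515): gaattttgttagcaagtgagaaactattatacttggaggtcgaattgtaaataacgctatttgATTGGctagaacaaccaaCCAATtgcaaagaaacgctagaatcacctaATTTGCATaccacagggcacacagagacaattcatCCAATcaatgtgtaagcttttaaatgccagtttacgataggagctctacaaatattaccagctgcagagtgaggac
H2BC8 and H2AC8 (chr6:26216689-26216920): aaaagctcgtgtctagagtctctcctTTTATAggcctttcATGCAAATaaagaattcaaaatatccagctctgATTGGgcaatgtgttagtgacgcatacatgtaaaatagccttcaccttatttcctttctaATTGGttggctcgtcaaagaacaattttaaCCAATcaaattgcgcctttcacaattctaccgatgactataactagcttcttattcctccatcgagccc
The first 3 pairs lay in H3K27ac peaks and the last 2 did not. NF-Y is a trimeric activator of many promoters, and POU2F1 (Oct-1) acts on H2B promoters. A CCAAT box was present in 10 of 10 pairs, a TATA motif in 8 and an octamer in 8. By call, the TATA motif was present in 7 of the 8 pairs within a peak and 1 of the 2 without, and the octamer in 6 of the 8 and 2 of the 2.

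A gene was called marked where a peak came within 1 kb of the start site of its canonical transcript, and the peak of highest fold enrichment was taken as its promoter peak. In MDA-MB-231 replicate 2, 42 of the 64 genes (65.6%) were marked, beside 58.1% of all 19970 genes. In Hs578T replicate 1, 42 (65.6%) were marked, beside 58.2% of all genes. In Hs578T replicate 2, 43 (67.2%) were marked, beside 56.4% of all genes. In MDA-MB-231 replicate 1 none of the 64 was marked, beside 0.0601% of all genes (12 of 19970). The mean was 42.5 ± 0.707 (SD, n = 2) in Hs578T and 21 ± 29.7 (SD, n = 2) in MDA-MB-231, or 42 without MDA-MB-231 replicate 1. The histone genes were thus 7.4 to 10.8 percentage points above the background of the large lists. Of the 27 other protein-coding genes of the same 2 regions, 18, 17 and 17 were marked, a share similar to that of the histone genes. All 18 genes whose start-site windows held over 10% of 50-base stretches repeated elsewhere in the genome were marked in every large list. Leaving them out could therefore only lower the share. Without them, 24 of 46 (52.2%), 24 of 46 (52.2%) and 25 of 46 (54.3%) were marked, below the background of each list. That background still holds all 19970 genes, repeated windows included, so the filtered genes are set beside an unfiltered share.

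Between the large lists the calls of the histone genes were almost identical. The share of all protein-coding genes with the same call in all 3 was not computed. Whether the histone genes exceed that general level was therefore not tested. The same 42 genes were marked in all 3, 21 were marked in no list, and 1, H4C5, was marked only in Hs578T replicate 2. H4C5 was a borderline case, because the near edge of its peak lay 995 bp from the start site in that list, and the corresponding peak lay 1027 bp away in MDA-MB-231 replicate 2 and 1005 bp away in Hs578T replicate 1. At 2500 bp instead of 1 kb, H4C5 was marked in all 3 and H1-1 in both Hs578T lists.

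The linker histone family had the smallest marked share, with 2 of 6 genes marked in every large list. H1-2, which encodes linker histone H1.2, had one of the strongest peaks among the 64 genes. Its peak was 4965, 6075 and 4990 bp wide with fold enrichments of 25.9, 25.7 and 21.9 over the local background, and these stood at percentiles 98.4, 98.5 and 98.6 of all peaks of each list. Fold enrichment depends on each library's own background, so only its percentile within a list is compared between lists. H1-4, which encodes H1.4, shared a peak with H2BC5, with fold enrichments of 13.4, 11.7 and 10.7 at percentiles 86.1, 83.9 and 85.5. The unmarked members were H1-1, H1-3, H1-5 and H1-6. H1-6 encodes the testis-specific linker histone, and its start site lay 3006, 3032 and 3357 bp from the nearest peak. H1-1 lay 2604, 2185 and 2244 bp from the nearest peak, whereas H1-3 was at least 28494 bp and H1-5 at least 22479 bp from one. All 6 H1 promoters held the H1 box AAACACA, which was present in 5.64% of the promoters of the RefSeq table.

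Among the genes of the H2A and H2B dimer, 12 of 15 H2A and 12 of 16 H2B genes were marked in every large list. By mean percentile over the large lists, the strongest in both families were the neighbours H2BC21, H2AC20 and H2AC21 on chromosome 1, although H2AC19 ranked higher in MDA-MB-231 replicate 2. They lay in 1 peak of 5771, 5716 and 5539 bp with fold enrichments of 32.8, 27.7 and 21.2 (percentiles 99.6, 99.0 and 98.4). Because values are those of the peak, genes that share one cannot be ranked against each other. The weakest marked H2A gene by mean percentile was H2AC13, in a peak shared by 5 genes with fold enrichments of 8.00, 7.68 and 6.21 (percentiles 66.6, 68.8 and 63.7). The weakest marked H2B gene was H2BC6, whose peak was narrow in every list, at 1054, 1038 and 1329 bp, with fold enrichments of 4.07, 4.502 and 3.52 (percentiles 31.3, 43.2 and 27.6). H2BC6 was the last marked gene before the longest unmarked run. The unmarked members were H2AC7, H2AC8, H2AC16, H2BC7, H2BC8, H2BC9 and H2BC10.

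The H3 and H4 families, which form the central tetramer of the nucleosome, had 8 of 13 and 8 of 14 genes marked in every large list. By mean percentile the strongest were H3C1 and H4C1, although H3C14, H3C15, H4C14 and H4C15 ranked higher in MDA-MB-231 replicate 2. H3C1 and H4C1 lay in 1 shared peak of 3277, 3310 and 3070 bp with fold enrichments of 25.96, 26.6 and 21.2 (percentiles 98.4, 98.7 and 98.3). The left edge of that peak lay 60, 479 and 420 bp upstream of H3C1, so in MDA-MB-231 replicate 2 the start site of H3C1 sat at its border. The weakest marked H3 gene by mean percentile was H3C10, in the same 5-gene peak as H2AC13. Of the H4 genes marked in all 3 large lists, the weakest by mean percentile was H4C11, although H4C12 ranked lower in MDA-MB-231 replicate 2. H4C11 lay alone in a peak of 4014, 3885 and 3897 bp with fold enrichments of 12.5, 7.79 and 8.03 (percentiles 83.8, 69.3 and 75.3). The unmarked H3 genes were H3C4, H3C6, H3C7, H3C8 and H3C11. The H4 genes unmarked in every list were H4C4, H4C6, H4C7, H4C9 and H4C13.

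**Figure D1:**
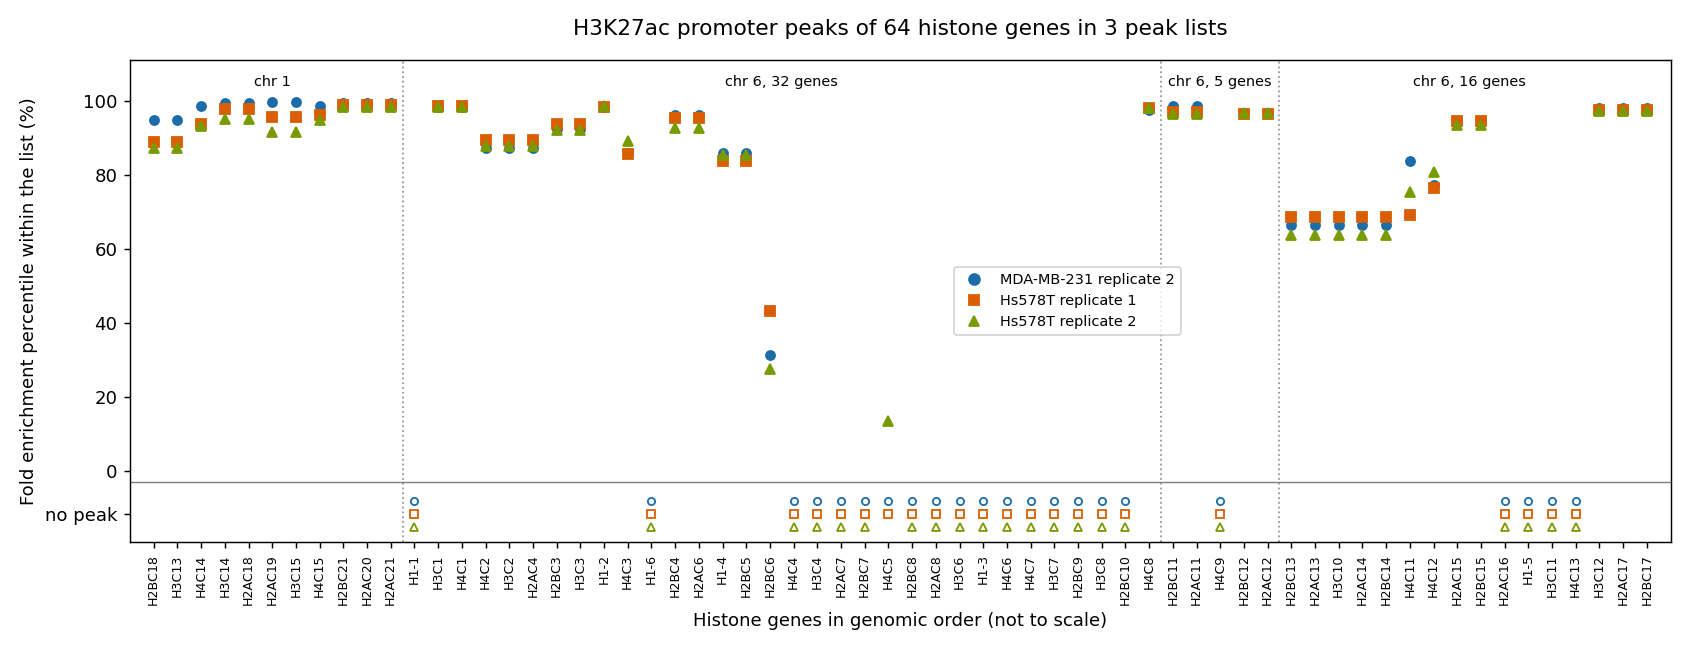
Fold enrichment percentile of the promoter peak of each of the 64 histone genes within its own list (vertical axis, percent), with genes in genomic order (horizontal axis) and 1 symbol for each large list. Open symbols at the bottom are genes without a promoter peak, and the 15 genes from H4C4 to H2BC10 form the longest such run, in which only H4C5 has a point.

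The 22 genes that were unmarked in at least 1 large list lay mostly in runs of neighbours. The windows of close neighbours overlap, so such runs are partly built into the assignment. All 22 were on chromosome 6, which holds 53 of the 64 genes. Calls on chromosome 1 are less certain, because most of its windows hold repeated sequence. Of the 22, 15 were consecutive, from H4C4 to H2BC10 (chr6:26189112-26272931, 83819 bp between the outermost start sites). This run held 2 H2A, 4 H2B, 4 H3, 4 H4 genes and 1 H1 gene. It contained 1 weak peak in each large list, of 857, 803 and 810 bp with fold enrichments of 3.51, 3.87 and 2.99, and this is the peak near H4C5. To the right of it followed 77733, 77842 and 77862 bp without any peak, across the start sites of 10 histone genes. The peaks that ended this stretch covered H4C8 and were strong, with fold enrichments of 23.7, 24.5 and 20.8 (percentiles 97.6, 98.2 and 98.2). A second run of 4 genes, H2AC16, H1-5, H3C11 and H4C13 (chr6:27865317-27873534), lay in a peak-free stretch of 49370, 49768 and 49685 bp. H1-1, H1-6 and H4C9 were unmarked singly, with marked histone genes on both sides for H1-6 and H4C9. H4C9 lay 4105, 4145 and 4286 bp from the nearest peak, between the marked pairs H2BC11 with H2AC11 and H2BC12 with H2AC12.

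By cluster, 11 of 11 genes were marked on chromosome 1, 15 of 32 between H1-1 and H4C8, 4 of 5 between H2BC11 and H2AC12 and 12 of 16 between H2BC13 and H2BC17 in all 3 large lists. The share of the cluster's bases under peaks was 34.9%, 34.6% and 32.7% on chromosome 1, 18.1%, 18.8% and 17.7% in the 32-gene cluster, 42.2%, 41.5% and 39.8% in the 5-gene cluster, and 31.7%, 30.7% and 28.9% in the 16-gene cluster. The 32-gene cluster, which holds the longest unmarked run, thus had the lowest coverage in every large list. On chromosome 1, 8 of the 11 windows held 64.04% to 100% of 50-base stretches that recur elsewhere in the genome, among them all of the windows of H3C14, H3C15, H4C14 and H4C15. A read that lies wholly within repeated sequence cannot be assigned to 1 copy. Read length and the handling of such reads are not given in the sources used here. Neither the individual calls nor the peak values of these copies are therefore certain. The peaks over the duplicated pairs swapped their order of width between lists, at 6875, 5504 and 5497 bp over H3C14 and H2AC18 and 5579, 6874 and 6043 bp over H2AC19 and H3C15. The unmarked genes were not repeated in this way, with at most 6.81% of such stretches and a median of 0.333%.

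In the marked part of the clusters, H3K27ac was broad. The 42, 42 and 43 marked genes lay in 22, 22 and 23 distinct peaks with median widths of 5233, 5548 and 4990 bp, against 1758, 1847 and 1762 bp for the promoter peaks of all other genes. Peaks wider than 4 kb made up 13 of 22, 12 of 22 and 12 of 23 of them, against 11.9%, 13.7% and 11.8% of the other promoter peaks. Their fold enrichment also ranked high, with a median percentile of 96.4, 95.1 and 92.8 against 71.3, 69.9 and 67.4 for other promoter peaks. The widest, over H4C2, H3C2 and H2AC4, measured 11059, 11056 and 11406 bp with fold enrichments of 14.04, 14.3 and 11.5. In MDA-MB-231 replicate 2 every marked histone transcript lay wholly within its peak, as did 41 of 42 in Hs578T replicate 1 and 41 of 43 in Hs578T replicate 2. A short transcript and a broad peak are both part of this count. In bulk chromatin, a stronger peak in more cells and a stronger mark per cell cannot be told apart.

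**Figure D2:**
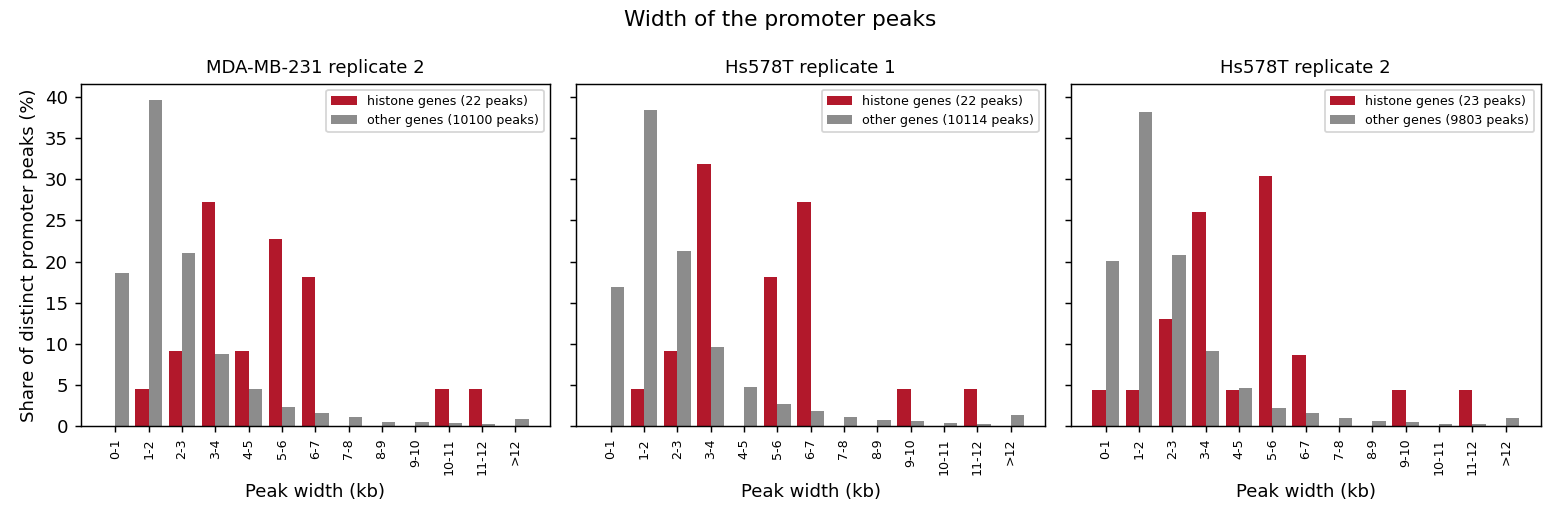
Share of distinct promoter peaks (vertical axis, percent) by peak width (horizontal axis, kb) for histone genes and for other protein-coding genes, 1 panel for each large list. Histone gene peaks lie mostly above 3 kb, with medians of 5233, 5548 and 4990 bp, and other promoter peaks mostly below it.

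Part of this breadth went with neighbouring genes that shared a peak. Peaks that reached the windows of 2 or more histone genes numbered 14 of 22, 14 of 22 and 14 of 23 (63.6%, 63.6% and 60.9%), against 13.2% of other promoter peaks in each large list, and together they held 34 of the marked genes. Of these, 10 held 2 genes, 3 held 3 and 1 held 5. The 5-gene peak joined H2BC13, H2AC13, H3C10, H2AC14 and H2BC14 over 10294, 9770 and 9169 bp, and despite its width its fold enrichment was among the lowest of the histone peaks. The 3-gene peaks were those of H2BC21, H2AC20 and H2AC21, of H4C2, H3C2 and H2AC4, and of H3C12, H2AC17 and H2BC17, the last with fold enrichments of 24.95, 23.1 and 18.9. The 8 genes that were alone in their peak in MDA-MB-231 replicate 2 had peaks that reached a median of 1430 bp upstream and 1344 bp downstream of the start site, and over all 42 marked genes these medians were 2438 and 2736 bp. Those 8 peaks were 1054 to 4965 bp wide. All but that of H2BC6 were wider than 1758 bp, the median of other promoter peaks in that list.

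**Figure D3:**
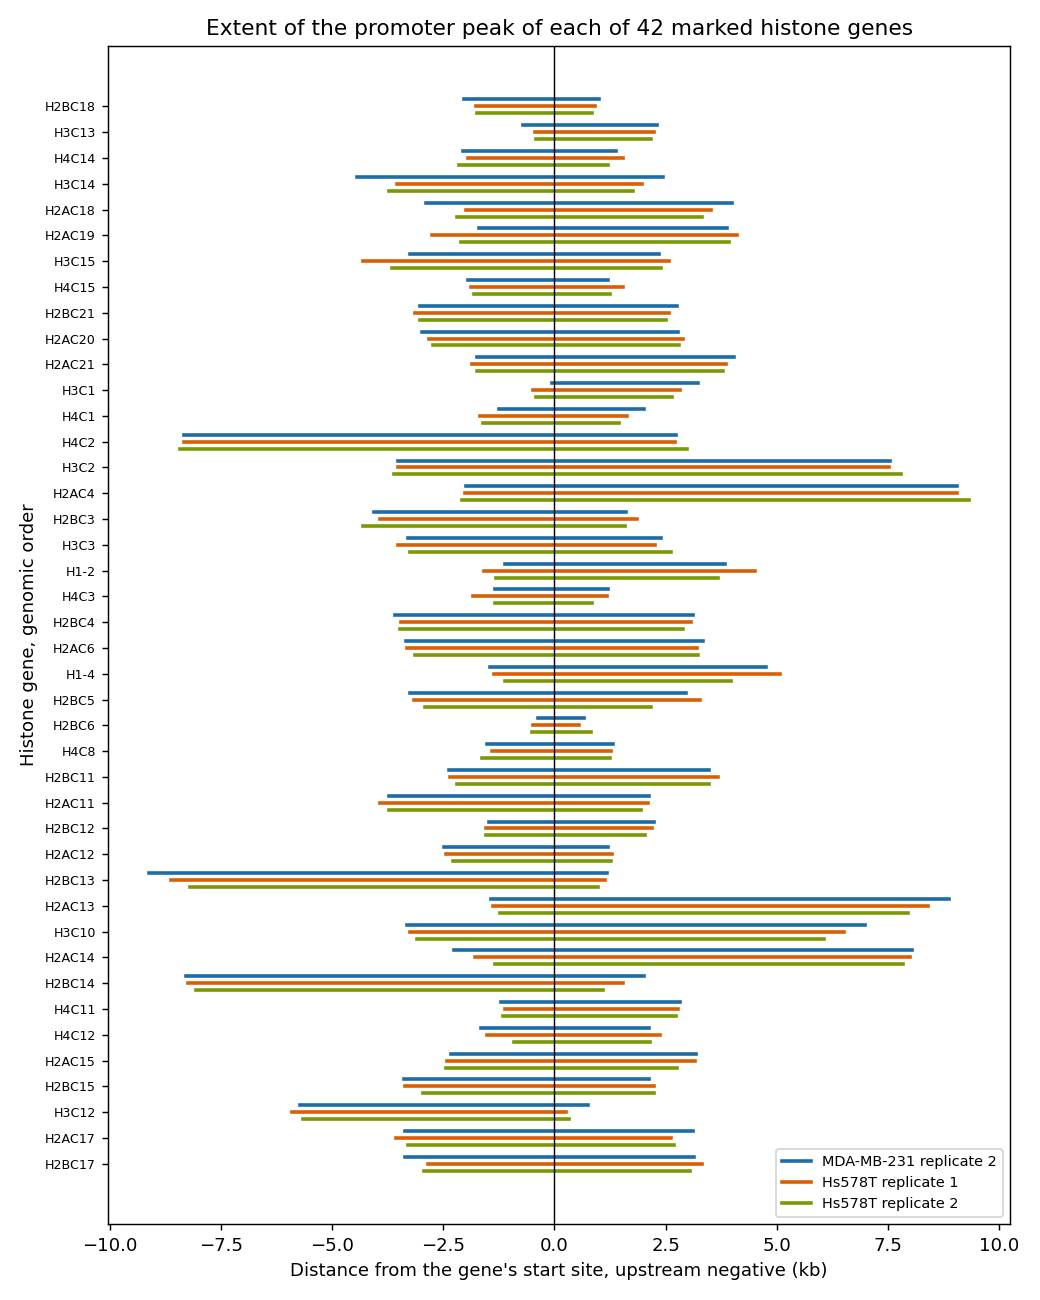
Extent of the promoter peak of each of the 42 histone genes marked in all 3 large lists, in kb from the gene's own start site (upstream to the left), with 1 line for each list and genes in genomic order. The lines for H2BC6 are the shortest, and those of the 5-gene peak from H2BC13 to H2BC14 and of H4C2, H3C2 and H2AC4 are among the longest.

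Sharing followed the distance between start sites. Neighbouring histone genes up to 5 kb apart, where both were marked, always lay in 1 peak, in 8 of 8 pairs up to 500 bp, 9 of 9 beyond that up to 2 kb and 3 of 3 from 2 to 5 kb in each large list. At 5 to 10 kb 0 of 7 did. For neighbouring pairs of other genes the shares were 100% up to 500 bp, 99.0%, 98.3% and 98.6% beyond that up to 2 kb, 33.0%, 37.3% and 30.9% from 2 to 5 kb, and 5.58%, 7.02% and 4.64% from 5 to 10 kb. Up to 2 kb, histone genes and other genes therefore had similar shares, and the difference at 2 to 5 kb rested on 3 histone pairs. Of the 22 histone pairs up to 2 kb apart, 17 were both marked, 5 were both unmarked and none was split, in every large list. Splits were rare for other genes too, at 24, 22 and 27 of 1594 such pairs (1.51%, 1.38% and 1.69%). The 1 kb windows of start sites up to 2 kb apart touch or overlap, so a peak in their overlap marks both genes. Sharing and the rarity of splits at these distances are therefore partly built into the assignment.

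**Figure D4:**
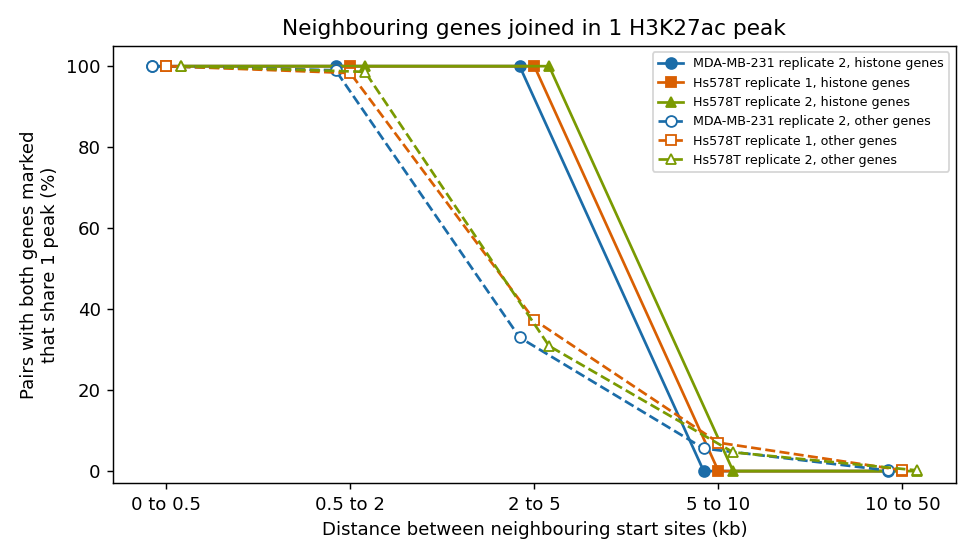
Share of neighbouring gene pairs with both genes marked that lay in 1 peak (vertical axis, percent) by distance between their start sites (horizontal axis, kb), for histone genes (solid lines) and other genes (dashed lines) in the 3 large lists. The sets part at 2 to 5 kb, where the histone points stand for 3 pairs and the others lie between 30.9% and 37.3%.

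The 11 head-to-head pairs with start sites at most 1 kb apart showed this in its closest form. Of these, 10 were pairs of an H2A and an H2B gene with 193 to 250 bases between the start sites, and the last, H3C7 with H2BC9, had 978. In every large list 8 pairs lay in 1 peak and 3 had none. The pair H2BC12 with H2AC12 had a peak of 3707, 3722 and 3571 bp with fold enrichments of 21.9, 20.6 and 18.0, and H2AC15 with H2BC15, the closest pair, one of 5501, 5592 and 5206 bp with fold enrichments of 19.3, 18.2 and 14.6. The unmarked pairs, H2AC7 with H2BC7, H2BC8 with H2AC8 and H3C7 with H2BC9, were all in the 15-gene run.

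The promoters of the marked and the unmarked genes were compared for motifs over 250 bases before to 50 after the start site in the RefSeq promoter table (GRCh38.p14), which held 59 of the 64 genes. For H3C4 and H3C6 its start site lay at -2007 and -957 bp from the GENCODE one on the gene's own strand, which is upstream for both. Their sequences therefore describe other start sites. The entry of H3C4 has the start site of H2AC7, so the same sequence was counted for both genes. It is also the only H3 promoter with an octamer. TATAAA on either strand was present in 39 of 59 histone promoters (66.1%), against 11.5% of the 35116 promoters of the table, and in 30 of 38 marked and 9 of 21 unmarked genes. CCAAT was present in 50 of 59 (84.7%), against 34.6% of all promoters, and in 32 of 38 marked and 18 of 21 unmarked genes. It was present in every H1, H2A, H2B and H3 promoter and in 3 of 12 H4 promoters. The octamer was present in 24 of 59 (40.7%), against 1.77% of all promoters, and was concentrated in the H2B family with 13 of 16 and the H2A family with 10 of 14, where head-to-head pairs share it. It was present in 16 of 38 marked and 8 of 21 unmarked genes. Of the 3 motifs, TATAAA was the one whose share differed most between the calls, and genes of 1 pair share sequence, so these counts are not independent and no test was made.

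Within the H1 and H4 families TATAAA did not follow the call, with 1 of 2 marked and 2 of 4 unmarked H1 promoters and 3 of 6 marked and 3 of 6 other H4 promoters holding it. In the H2A, H2B and H3 families it was more frequent among marked than among unmarked promoters, with H3C4 and H3C6 read at other start sites. In head-to-head pairs the searched bases can reach a motif near the partner's start site, which then counts for both genes. Marked H2BC4, H2BC14 and H2BC17 and unmarked H2AC8 were counted as holding TATAAA, although the last 150 bases upstream of each held none. For layout, 1 marked and 1 unmarked gene were taken from the H1 and H4 families each, H1-2 with H1-5 and H4C2 with H4C6. The sequences upstream of their start sites are shown as examples. They are the last 150 bases before the start site on the gene's own strand, with the same 3 motifs in capitals.
H1-2 (chr6:26056471-26056620, minus strand): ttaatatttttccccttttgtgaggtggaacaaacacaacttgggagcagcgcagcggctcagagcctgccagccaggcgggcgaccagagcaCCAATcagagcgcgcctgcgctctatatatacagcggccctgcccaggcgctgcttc
H1-5 (chr6:27867589-27867738, minus strand): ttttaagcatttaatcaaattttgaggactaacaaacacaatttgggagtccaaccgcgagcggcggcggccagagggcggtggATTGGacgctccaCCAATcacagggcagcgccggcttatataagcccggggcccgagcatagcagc
H4C2 (chr6:26027284-26027433, minus strand): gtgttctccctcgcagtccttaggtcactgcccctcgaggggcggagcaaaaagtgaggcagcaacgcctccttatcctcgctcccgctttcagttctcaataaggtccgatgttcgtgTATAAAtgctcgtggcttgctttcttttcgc
H4C6 (chr6:26240243-26240392, plus strand): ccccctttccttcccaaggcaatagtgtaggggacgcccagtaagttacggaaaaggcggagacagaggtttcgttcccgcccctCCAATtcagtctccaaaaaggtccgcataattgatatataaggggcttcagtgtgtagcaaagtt

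The CpG ratio of the unmarked histone windows was nearer to that of marked promoters than to that of other unmarked genes, but their GC content was not. Over 1 kb on either side of the start site, the ratio of observed to expected CpG had a median of 0.783 in the 42 histone genes marked in all large lists and 0.747 in the 22 others. In MDA-MB-231 replicate 2 the median was 0.702 for other marked genes and 0.354 for other unmarked genes. A ratio above 0.6, a usual limit for CpG islands, was found in 18 of 22 unmarked histone genes (81.8%) and in 28.8% of other unmarked genes. The shares were the same in Hs578T replicate 1 for the histone genes, with 29.0% for other unmarked genes, and 17 of 21 (81.0%) and 30.5% in Hs578T replicate 2. The 4 unmarked genes below the limit were H1-6 at 0.468, H4C9 at 0.516, H1-3 at 0.545 and H1-5 at 0.564. All 42 genes marked in every large list were above it. The median GC content in MDA-MB-231 replicate 2 was 49.9% for marked and 47.2% for unmarked histone genes, against 57.4% for other marked and 53.1% for other unmarked genes, so both histone sets were lower in GC than both other sets, and by GC the unmarked histone genes lay nearer to other unmarked than to other marked genes.

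**Figure D5:**
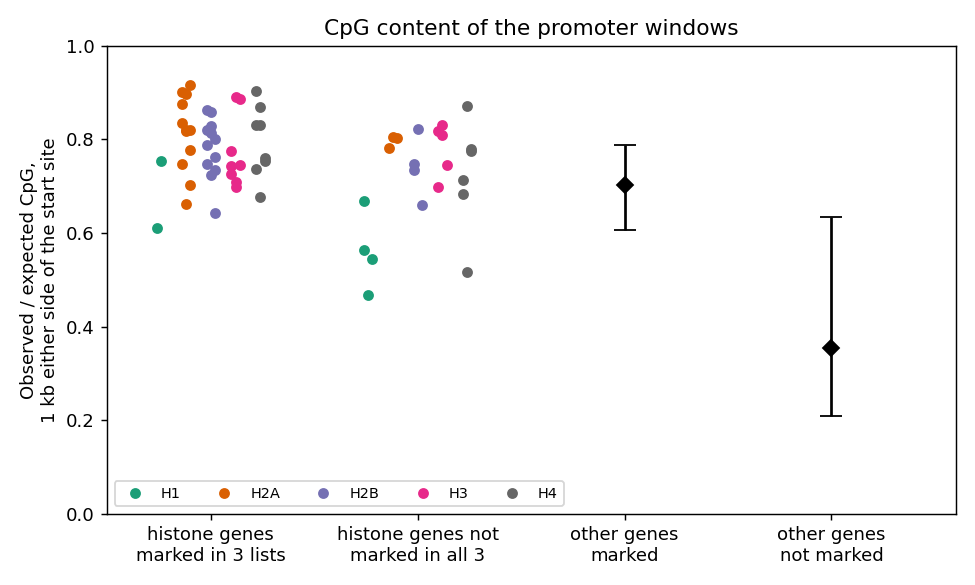
Observed to expected CpG ratio over 1 kb on either side of the start site (vertical axis, no unit), with 1 point for each histone gene coloured by family and shifted sideways for legibility, and the median and quartiles of other genes in MDA-MB-231 replicate 2 (diamond and bars). Most unmarked histone genes lie above 0.6 while the median of other unmarked genes is 0.354.

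Across lists, the order of the histone peaks was similar. Over the 22 peaks of the 42 shared genes, Spearman's rho of the fold enrichment was 0.829 between MDA-MB-231 replicate 2 and Hs578T replicate 1, 0.755 between MDA-MB-231 replicate 2 and Hs578T replicate 2 and 0.968 between the Hs578T lists. For width it was 0.903, 0.929 and 0.935 in the same order. These are descriptions over peaks that share each library's background and the same underlying sequence. Within the clusters the shared fraction of covered bases was 0.915, 0.898 and 0.903, higher than the whole-list values above. The genes of chromosome 1 ranked higher in MDA-MB-231 replicate 2 than in either Hs578T list, for example the peak of H2AC19 and H3C15 with fold enrichments of 35.4, 19.4 and 13.3 (percentiles 99.7, 95.6 and 91.6). With 1 usable MDA-MB-231 list, line and library cannot be told apart, and this peak lies on repeated sequence.

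Genes that act on the histone genes were marked throughout. All 10 genes of a list for histone gene transcription had a promoter peak in each large list, with median widths of 1999, 2358 and 1992 bp and median percentiles of 79.0, 75.8 and 78.5. They include NPAT, the cyclin E and CDK2 substrate that activates histone genes, with fold enrichments of 15.4, 16.4 and 13.01 (percentiles 89.9, 92.7 and 91.1), and HINFP, which binds H4 promoters, with 6.41, 5.21 and 4.77 (percentiles 56.7, 50.9 and 48.98). All 9 genes for the histone mRNA 3′ end and its decay were marked, with median percentiles of 70.4, 64.3 and 66.7, among them SLBP with fold enrichments of 20.9, 13.8 and 10.8. All 5 histone chaperone genes were marked as well. With backgrounds of 58.1%, 58.2% and 56.4%, these lists are short and mostly hold genes that every dividing cell uses.

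Among 12 histone genes that are expressed outside S phase, 10 were marked in each large list and H3-5 and MACROH2A2 were not. The median widths of the 10 were 3209, 3480 and 3678 bp, narrower than the medians of the replication-dependent clusters. Those cluster medians include peaks shared by several genes. In MDA-MB-231 replicate 2 the 8 peaks with 1 replication-dependent gene each were 1054 to 4965 bp wide, a range that includes 3209 bp. H3-3B, which encodes the replacement histone H3.3, had a peak of 7845, 7661 and 7952 bp. Of 4 replicative histone genes elsewhere in the genome, H4C16 was marked, with fold enrichments of 19.8, 25.3 and 19.6, and H2AC25, H2BC26 and H3-4 were not. H2AC1 and H2BC1, which lie on chromosome 6 just before the region used here, were unmarked. Of the 27 other protein-coding genes within the same 2 regions, 18, 17 and 17 were marked, with median widths of 1526, 1688 and 1304 bp, narrower than the medians of the histone peaks. Of 10 histone pseudogenes in the regions, 4 had their start site in a peak in each large list, and these 4 lay 276 to 854 bp from the start site of a marked histone gene.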

How the data were processed

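H3K27ac ChIP-seq peak lists were read, 2 for each cell line. Per the labels, the authors used Trimmomatic, Bowtie2, MACS2 and deepTools with hg38, and deposited 1 peak list per sample, apparently after removal of blacklisted regions. Versions and MACS2 settings are not given in the sources used here, and the absence of a summit column points to broad peak calling. The deposited columns hold a score, a fold enrichment (a ratio to local background), and −log10 p-values and −log10 q-values. The lists hold no read counts, so depth is unknown and no interval was computed.

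Peaks were assigned to GENCODE version 44 canonical start sites (Python 3.11.15, numpy 2.4.6), and the assignment was tested on simulated peaks. Windows of 1 kb on either side were used, and a list with over 10000 peaks was called large. Percentiles are over all peaks of a list on chromosomes 1 to 22 and X. Repeated sequence was counted as 50-base stretches found elsewhere in hg38. Motif and promoter sequences are from RefSeq (GRCh38.p14), and those between start sites and of stem-loops from hg38. Genes named with values were those unmarked in a large list, the highest and lowest of each family by mean percentile, and those of the peaks that reach most genes. Other genes, such as H2BC12, H4C8 and H2AC19, were named after their values were seen. The members, gene lists and comparisons were chosen with earlier results of these data known. Alternatives were other window sizes, other start sites, stricter peaks, merged peaks, wider overlap and leaving out each list.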

Additional observations from a re-analysis of the deposited data

How the results depend on the processing

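No paired analysis was possible because the results come from no test and the replicate numbers mark no shared culture. Over 9 alternatives to the assignment or peak set and over the lists left out, counts of marked genes in the large lists and of shared peaks stayed within 1.5 times, and the median width and percentile within 1 SD over the large lists. With 42 or 43 of 64 genes marked, a rise could hardly pass 1.5 times, so for these counts the limit mainly bears on a fall. The exception to these limits was leaving out the 18 genes with repeated windows, all marked in every large list, a choice made after seeing the data. It gave 24, 24 and 25 marked genes of 46 in the large lists, 24 in all 3, 8 peaks shared by 2 or more genes in each large list in place of 14, and a mean median width of 5613 bp in place of 5257 ± 280 bp, with fewer genes counted by construction. The mean of MDA-MB-231 ranged from 0 without replicate 2 to 42.0 without replicate 1, and that of Hs578T from 42.0 to 43.0. Genes marked in all large lists kept numbered 42 with each of the 4 lists left out in turn. MDA-MB-231 replicate 1 is not a large list, so leaving it out could not change this count. Keeping the strongest 50% of peaks lost H2BC6 in every large list. Depth is unknown, so an unmarked gene is one without a called peak and not one without acetylation.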
